A study of Mus musculus with 8 samples.

Results

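The small heat shock proteins were followed in epididymal white adipose tissue, the fat depot beside the epididymis, of mice with and without the nuclear receptor Rev-erb alpha. The family comprised 10 genes, namely Hspb1, Hspb2, Hspb3, Cryaa, Cryab, Hspb6, Hspb7, Hspb8, Hspb9 and Hspb11, and all 10 were measured, among 19310 genes in all. They were chosen by gene symbol. They held 11 of the 20748 array rows that the platform annotation ties to exactly 1 symbol, and the row read for each gene was selected on the highest mean over the 8 arrays. The family was taken up with the large increase of Hspb7 already known, so the difference in Hspb7 between the groups is a description, and its place among the called genes supports nothing.

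The samples were 4 wild-type (WT) and 4 Rev-erb alpha KO samples, all from C57BL/6 males 12 to 15 weeks old. All of them ate a standard diet under 12 h light and 12 h dark, and tissue was collected at Zeitgeber time 10 h, counted from lights on. The labels do not give the allele behind the knockout, whether the receptor was missing in all tissues, or whether every sample was taken from its own animal. The p-values therefore reflect only how far these samples spread, which may be technical. The title of the series sets the comparison within FGF21 signalling in fat.

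Small heat shock proteins are chaperones built around a conserved alpha-crystallin domain. They work without ATP: oligomers of them bind proteins that begin to unfold and hold them until the ATP-driven HSP70 system, with its HSP40 partners, refolds them. Many members are best known from muscle, where they protect the cytoskeleton and the contractile apparatus, and some of them, Hspb1 and Cryab among these, are induced by heat shock factor HSF1 under stress. Hspb11 carries the family name but is better known as IFT25, a subunit of the transport machinery of cilia.

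Values are log2 expression values, so a difference of 1 is a 2-fold difference. The row of the targeted gene, Nr1d1, read 9.11 to 9.83 in the wild-type arrays and 8.80 to 9.56 in the knockout arrays. These ranges overlap, with a difference of −0.26 ± 0.19 (SE) that did not pass (limma adjusted p = 0.479). Which part of the transcript that row reads is not given in the sources used here, so it is no check of the labels; the knockout arrays are therefore named by their label, as knockout-labelled. Over all tested rows, 791 were called higher and 745 lower in the knockout-labelled arrays (limma, Benjamini-Hochberg adjusted p under 0.05), and array medians lay between 5.90 and 5.95. Precision is limited by the 4 arrays per group. In whole tissue, a change in the share of a cell type and a change in RNA per cell cannot be told apart.

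Of the 10 genes, Hspb7, Cryab, Hspb6 and Hspb1 were called higher in the knockout-labelled tissue and 0 were called lower, while 6 did not pass (limma adjusted p under 0.05). The same 4 had an unadjusted p under 0.05 and 0 did on the lower side, where 10.2% of all rows passed that limit upwards and 11.7% downwards, so 0 of 10 lower is near the background. Leaving Hspb7 aside, 3 of the other 9 were called higher, where 3.81% of all rows were called higher and 3.59% lower. In each of the 4 the lowest knockout-labelled array lay above the highest wild-type array, a separation seen upwards in 7.18% of all rows and downwards in 8.16%. For the other 6 genes the groups overlapped. The median log2 fold change over the 10 genes was 0.09, against −0.01 over all genes. It ranged from 0.06 to 0.16 over 12 alternatives, with 0.16 without knockout-labelled array 2. The mean log2 level over the 10 genes was 6.89 to 7.03 in the wild-type arrays and 7.27 to 7.44 in the knockout-labelled arrays, with Hspb7 included and with no test. With a minimum change of 1.5-fold, 2 of the 4 remained, Hspb7 and Cryab.

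**Figure D1:**
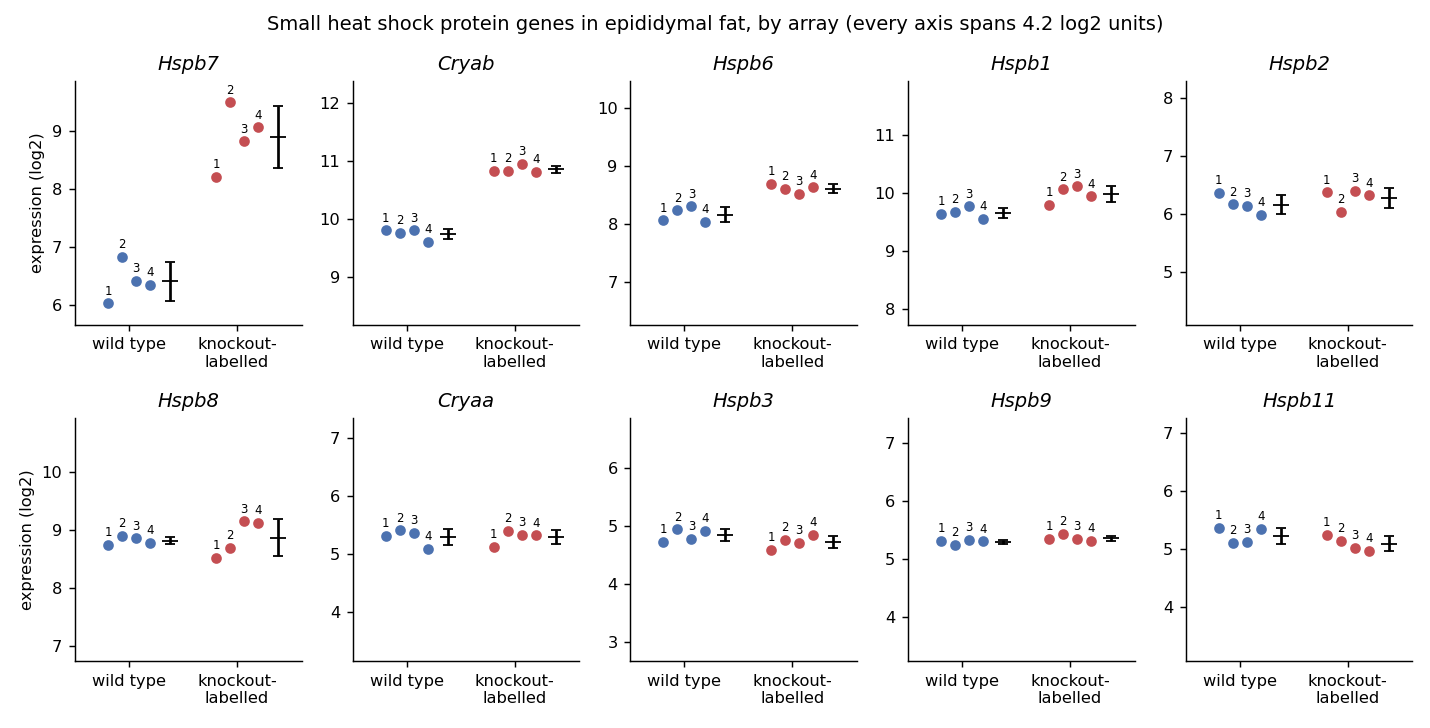
Expression in log2 units (vertical axis, the same span in every panel) of the 10 small heat shock protein genes in each array, numbered 1 to 4 within the wild-type (blue) and knockout-labelled (red) groups; black marks are the mean ± SD, n = 4. Hspb7, Cryab, Hspb6 and Hspb1 show no overlap between the groups, and the other 6 genes do.

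Hspb7 encodes a small heat shock protein first described in the cardiovascular system, where it binds the actin crosslinker filamin C. Its row (10509992) read 6.03, 6.84, 6.43 and 6.35 in wild-type arrays 1 to 4 and 8.21, 9.50, 8.83 and 9.07 in knockout-labelled arrays 1 to 4. The gap between the groups, from 6.84 to 8.21, was wider than the whole range within either of them. The means were 6.41 ± 0.33 and 8.90 ± 0.54 (SD, n = 4 each), a log2 fold change of 2.49 (SE 0.24, 95% interval 1.95 to 3.03). That was the second largest increase by log2 fold change among the 19310 genes. Hspb7 was also the most variable gene of the family within the groups. Its pooled within-group SD was 0.45, against a median of 0.10 over all genes. Leaving out single arrays gave log2 fold changes of 2.29 to 2.72.

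The promoter of Hspb7 is shown because this gene had the largest change of the family. The 250 bases before its start lie at chr4:141420529-141420778 on the plus strand (RefSeq, GRCm38.p6):
Hspb7: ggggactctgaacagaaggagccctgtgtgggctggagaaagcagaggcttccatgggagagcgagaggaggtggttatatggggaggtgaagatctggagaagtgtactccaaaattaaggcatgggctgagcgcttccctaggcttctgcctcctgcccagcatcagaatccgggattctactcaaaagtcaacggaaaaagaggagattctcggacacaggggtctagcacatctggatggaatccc
It was searched, like every promoter below, on both strands for the nuclear receptor half-site AGGTCA, the longer ROR response element that Rev-erb alpha also binds, the E-box CACGTG, the CArG box of muscle genes and the paired heat shock units GAANNTTC and TTCNNGAA. A match of the ROR element can hold the half-site within it, and matches of the paired heat shock units can overlap each other. None of these 6 motifs was found in this window of Hspb7, which is why no letter stands in capitals. Of 32851 RefSeq mouse promoters of the same length, 14.0% held the half-site, 0.332% the ROR element, 6.02% the E-box, 1.47% the CArG box, 6.69% GAANNTTC and 7.17% TTCNNGAA.

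Cryab encodes alpha-B-crystallin, which was found in the lens and is also abundant in muscle. Among the 4 called genes it had the smallest spread within the groups, with a pooled SD of 0.08. The row (10585214) read 9.81, 9.76, 9.80 and 9.61 in wild type and 10.84, 10.83, 10.95 and 10.82 in the knockout-labelled arrays. All 4 knockout-labelled values lay about 1 log2 unit above all 4 wild-type values. From 9.75 ± 0.09 to 10.86 ± 0.06 (SD, n = 4 each), Cryab was 2.16-fold higher (an increase of 1.11 log2 units with SE 0.061, at a limma adjusted p of 3.20e-05). Its increase ranked 35th in size among the 19310 genes, but only 1 gene had a smaller p. Whichever array was left out, the change stayed between 1.07 and 1.13.

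Hspb2 lies beside Cryab on chromosome 9, head to head with it, and encodes a small heat shock protein of skeletal and heart muscle that binds the myotonic dystrophy kinase. In the gene table the model of Cryab spans that of Hspb2, and which stretch each array row reads is not given in the sources used here. Its row (10593418) read 6.36, 6.16, 6.13 and 5.98 in wild type and 6.37, 6.03, 6.40 and 6.32 in the knockout-labelled arrays. These values interleave, and the difference was 0.12 (SE 0.099, 95% interval −0.10 to 0.34, limma adjusted p = 0.547). Cryab minus Hspb2, a difference looked at after the values of both genes were seen and given with no test, was 3.44 to 3.67 in the wild-type arrays and at least 4.47 in the knockout-labelled arrays. On the other side of Hspb2, 1110032A03Rik was higher by 0.21 (SE 0.055, limma adjusted p = 0.0471), a call lost in each fit with an array left out (adjusted p 0.0650 to 0.114). On the other side of Cryab, 2310030G06Rik, which overlaps the model of Cryab in the gene table, was at −0.13 (limma adjusted p = 0.386).

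Hspb6 encodes HSP20, a target of protein kinase A in smooth and heart muscle. The row (10551966) read 8.06, 8.23, 8.30 and 8.04 in wild type and 8.68, 8.61, 8.51 and 8.63 in the knockout-labelled arrays. The lowest of the latter, array 3, exceeded the highest wild-type array, also array 3, by a smaller margin than in Cryab. The gene went from 8.16 ± 0.13 to 8.61 ± 0.07 (SD, n = 4 each), a 1.36-fold increase (0.45 log2 units, SE 0.071, limma adjusted p = 0.00485). It passed in each fit with an array left out (adjusted p 0.00535 to 0.0178). Its neighbours on chromosome 7, Proser3 (−0.20, limma adjusted p = 0.184) and Lin37 (−0.12, 0.365), which overlaps the model of Hspb6 in the gene table, did not pass.

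RefSeq gives Hspb6 a pair of starts. The window before the first, chr7:30552290-30552539, held none of the motifs. The 250 bases before the second, at chr7:30553051-30553300 on the plus strand, held GAANNTTC between 120 and 113 bases before the start, printed in capitals:
Hspb6: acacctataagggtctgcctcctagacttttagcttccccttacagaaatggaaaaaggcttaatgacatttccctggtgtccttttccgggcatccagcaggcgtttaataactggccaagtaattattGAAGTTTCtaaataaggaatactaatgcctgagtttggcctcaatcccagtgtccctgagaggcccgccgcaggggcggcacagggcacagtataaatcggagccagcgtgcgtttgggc

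Hspb1, named HSP25 in the mouse, is the family member best known for guarding actin filaments under stress. It had 2 rows and both were higher. The brighter (10408928) read 9.63, 9.67, 9.77 and 9.55 in wild type and 9.80, 10.06, 10.11 and 9.94 in the knockout-labelled arrays. Here the groups nearly met, since knockout-labelled array 1, at 9.80, stood just above wild-type array 3. The means were 9.65 ± 0.09 and 9.98 ± 0.14 (SD, n = 4 each), a 1.25-fold increase (0.32 log2 units, SE 0.077, limma adjusted p = 0.0314). That call held without wild-type array 3 or knockout-labelled array 1 and was lost without any of the other 6 arrays (adjusted p 0.0671 to 0.0895).

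The dimmer Hspb1 row (10526410) read 8.80, 9.10, 8.94 and 8.81 in wild type and 9.21, 9.43, 9.39 and 9.40 in the knockout-labelled arrays, again without overlap. It was higher by 0.44 (SE 0.079), 1.36-fold, (limma adjusted p = 0.00813), and passed whichever array was left out (0.00573 to 0.0295). The annotation gives both rows the same transcripts, so they cannot be assigned to different forms of the gene, and which locus each of them reads is not given in the sources used here. The call of Hspb1 in the family's count rests on the brighter row. The mean of both rows was higher by 0.38 (limma adjusted p = 0.0103). The neighbours on chromosome 5 did not pass: Srrm3 was at 0.01 (0.969, with sign changes when single arrays were left out) and Ywhag at −0.25 (limma adjusted p = 0.0557). Ywhag passed with quantile normalization (0.0416), without the dimmest 33.3% of rows (0.0391) and with trend and robust eBayes (0.0389).

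The promoter of Hspb1 is shown because it held a pair of matches and belongs to a gene called higher. The 250 bases before the start, at chr5:135887669-135887918 on the plus strand, held GAANNTTC 2 times, between 117 and 110 and between 97 and 90 bases before the start, in capitals:
Hspb1: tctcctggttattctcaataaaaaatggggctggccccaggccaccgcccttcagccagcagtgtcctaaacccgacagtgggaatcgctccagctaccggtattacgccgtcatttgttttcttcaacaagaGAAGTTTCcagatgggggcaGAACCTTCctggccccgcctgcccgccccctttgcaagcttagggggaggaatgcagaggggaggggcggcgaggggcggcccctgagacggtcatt
Promoters were matched for 8 of the 10 genes, with 9 windows, and 3 of these genes were the called Hspb7, Hspb6 and Hspb1. For Cryab, which was also called, and for Hspb2 no promoter was matched, so neither was searched. Among the genes that did not pass, the window of Hspb3 held AGGTCA and GAANNTTC once each, and those of Cryaa, Hspb8, Hspb9 and Hspb11 held none of the motifs. The ROR element, the E-box and the CArG box were in none of the 9 windows. A match is only a run of letters, and these windows leave out introns and distant elements.

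**Figure D2:**
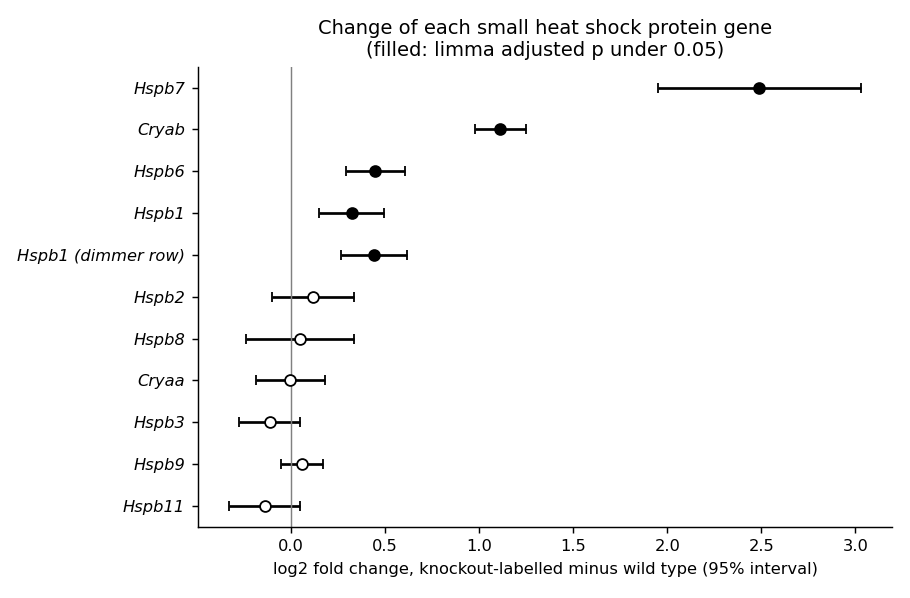
Log2 fold change (knockout-labelled minus wild type, horizontal axis) of each small heat shock protein gene with its 95% interval from the limma fit, n = 4 arrays per group; filled points passed at an adjusted p under 0.05. Hspb7 (2.49) and Cryab (1.11) lie apart from Hspb6 (0.45) and both Hspb1 rows (0.32 and 0.44), and the intervals of the other 6 genes include 0.

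The other 6 genes differ in their usual sites, and for none did the difference pass. Hspb8 encodes HSP22, which works with the cochaperone BAG3 in clearing misfolded proteins. It read 8.75, 8.89, 8.86 and 8.77 in wild type and 8.52, 8.69, 9.15 and 9.12 in the knockout-labelled arrays. Knockout-labelled arrays 1 and 2 lay below all wild-type arrays and arrays 3 and 4 above all of them. The mean difference was therefore small (0.05, SE 0.13, 95% interval −0.24 to 0.34, limma adjusted p = 0.873), it fell below 0 without array 3 or array 4, and the SD was 0.31 in the knockout-labelled group against 0.07 in wild type. Knockout-labelled array 1 was lowest in Hspb7 too, but array 2, below all wild-type arrays in Hspb8, was the highest in Hspb7.

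Cryaa, which encodes the lens protein alpha-A-crystallin, read 5.09 to 5.40 in wild type and 5.12 to 5.39 in the knockout-labelled arrays. Its log2 fold change was −0.0026 (SE 0.083, 95% interval −0.19 to 0.18, limma adjusted p = 0.991), with a sign that turned under quantile normalization, median centring and array weights. Of its neighbours on chromosome 17, the salt-inducible kinase gene Sik1 was higher, by 0.47 (SE 0.090, limma adjusted p = 0.0115), and U2af1 was at −0.27 (0.143; 0.0250 without knockout-labelled array 2). Hspb3, a partner of Hspb2 in muscle, read 4.73 to 4.94 in wild type and 4.59 to 4.85 in the knockout-labelled arrays. Its log2 fold change was −0.11 (95% interval −0.27 to 0.05, limma adjusted p = 0.411), and its row was among the dimmest 33.3% of all rows, the only such row of the family. Its neighbours Snx18 (0.22, limma adjusted p = 0.119) and Arl15 (0.02, 0.880) did not pass.

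Hspb9, known from the testis, read 5.24 to 5.33 in wild type and 5.31 to 5.42 in the knockout-labelled arrays. It had the smallest pooled within-group SD of the family, 0.04, and a log2 fold change of 0.06 (95% interval −0.05 to 0.17, limma adjusted p = 0.549). Hspb9 shares chromosome 11 with Nr1d1, and its neighbours Kat2a (0.0023) and Rab5c (0.02) did not pass (limma adjusted p = 0.989 and 0.894; Kat2a turned sign with array weights and Rab5c with quantile normalization). Hspb11 read 5.10 to 5.37 in wild type and 4.97 to 5.25 in the knockout-labelled arrays. It had the lowest log2 fold change of the family, −0.14 (95% interval −0.33 to 0.05, limma adjusted p = 0.383). Beside it, Lrrc42 was at −0.29 (limma adjusted p = 0.0723) and the deiodinase gene Dio1 at −0.18 (0.254). Across the family, 2 of 18 neighbouring genes that are no members were called higher and 0 lower, beside 3.81% and 3.59% of all rows. The 2 were Sik1 and 1110032A03Rik, and the call of 1110032A03Rik was lost in 11 of its 15 alternatives. Those next to Hspb7 on chromosome 4, Fam131c and Srarp, were at 0.06 and 0.09 (limma adjusted p = 0.680 and 0.728; Srarp at −0.0043 without wild-type array 4), beside the 2.49 of Hspb7. Those of Hspb8, Ccdc60 (−0.11) and Srrm4 (−0.03), did not pass either (0.351 and 0.900).

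Calls among the other chaperones were near the background of 3.81% higher and 3.59% lower, which in lists this short is about 1 gene or fewer. The lists held 15 measured targets of HSF1 outside the family, 14 genes of HSP70 and HSP110, 12 of HSP90 and its cochaperones and 11 chaperonin genes. A further list held 5 genes, the heat shock factors Hsf2, Hsf3, Hsf4 and Hsf5 and the factor-binding Hsbp1, without Hsf1. None of these genes was called in the limma fit. At an unadjusted p under 0.05 these lists had, in that order, 2, 3, 1, 0 and 0 genes higher and 2, 1, 2, 0 and 0 lower, beside 10.2% and 11.7% of all rows. Their median log2 fold changes were 0.04, 0.05, −0.06, −0.05 and −0.05, against −0.01 over all genes, and the last turned to 0.0066 without knockout-labelled array 4. The smallest p of each list belonged to Dnaja1 (−0.23, limma adjusted p = 0.0544), Hspa9 (−0.18, 0.0816), Ptges3 (−0.17, 0.127), Cct5 (−0.12, 0.234) and Hsbp1 (0.09, 0.374). Dnaja1 passed, lower, with quantile normalization (0.0379), without the dimmest 33.3% of rows (0.0377) and with trend and robust eBayes (0.0394). The stress-induced HSP70 gene Hspa1a, chosen after its value was seen, read 6.79 to 6.90 in wild type and 6.65 to 6.98 in the knockout-labelled arrays (log2 fold change −0.05, limma adjusted p = 0.760). Of 17 HSP40 genes, Dnajb2 was called lower (−0.22, SE 0.055, limma adjusted p = 0.0415), a call lost in 10 of its 15 alternatives (adjusted p 0.0583 to 0.114), and the list's median was −0.05. At an unadjusted limma p under 0.05, 1 of the 17 was higher and 4 were lower, beside 10.2% and 11.7% of all rows. Of the 18 listed HSF1 targets, 16 also stand in another of these lists. The family's Hspb1 and Cryab, which HSF1 induces under stress and which were called higher here, were not on that list.

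**Figure D3:**
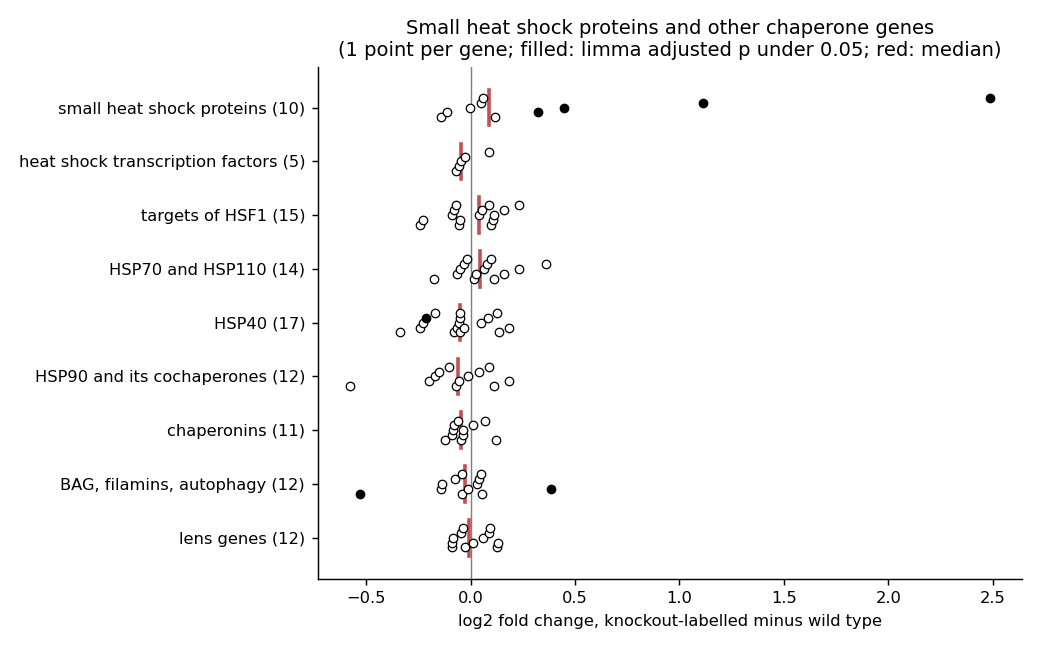
Log2 fold change (knockout-labelled minus wild type, horizontal axis) of each measured gene of the small heat shock protein family and of 8 lists of other chaperones, their regulators and lens genes; numbers in parentheses are genes, filled points passed at a limma adjusted p under 0.05 and red bars are medians. The family holds 4 filled points on the right, and the other lists hold 3 filled points in all.

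A list of BAG cochaperones, filamins and genes of chaperone-assisted autophagy gave 1 increase and 1 decrease among 12 measured genes. Over all rows, 3.81% were called higher and 3.59% lower. The list's median log2 fold change was −0.03. The actin crosslinker filamin A (Flna) rose from 9.40 ± 0.03 to 9.79 ± 0.13 (SD, n = 4 each), an increase of 0.39 (SE 0.067) at a limma adjusted p of 0.00709. The cochaperone gene Bag4 read 8.35 to 8.64 in wild type and 7.93 to 8.07 in the knockout-labelled arrays and fell by 0.53 (SE 0.072, limma adjusted p = 0.00200). In both genes the groups did not overlap, a separation seen upwards in 7.18% of all rows and downwards in 8.16%. In the list, 1 gene was separated upwards and 2 downwards. Flnc, which encodes the filamin that HSPB7 binds, and Bag3, the partner of HSPB8, were chosen after their values were seen. Flnc read 6.11 to 6.47 in wild type and 6.24 to 6.45 in the knockout-labelled arrays (−0.04, limma adjusted p = 0.836), and Bag3 read 7.89 to 8.10 and 7.99 to 8.11 (0.06, 0.653). Of 12 lens genes, other crystallins among them, 0 were called in the limma fit, and at an unadjusted p under 0.05 there was 1 higher, Cryba1 (0.13, limma adjusted p = 0.223), and 0 lower.

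Since muscle holds much of this family, muscle markers were read beside it. Over all rows, 3.81% were called higher and 3.59% lower. Of 18 skeletal muscle markers, 0 were called higher and 1 lower, Actn3 (−0.43, SE 0.10, limma adjusted p = 0.0332, lost without any array but wild-type array 1 or knockout-labelled array 2), and the skeletal actin gene Acta1 was at 0.77 (0.0971). The mean log2 level over that list was 5.27 to 5.38 in wild type and 5.31 to 5.42 in the knockout-labelled arrays. Of 13 heart muscle markers, only Myl4 was called (0.61, SE 0.095, limma adjusted p = 0.00451), and the list's level was 5.19 to 5.26 and 5.19 to 5.31. Of 14 markers of smooth muscle and pericytes, 2 rose, the actin gene Acta2 by 0.89 (SE 0.16, limma adjusted p = 0.00911) and the pericyte gene Rgs5 by 0.66 (SE 0.12, 0.00858). Tagln fell (−0.29, limma adjusted p = 0.0415, lost in 9 of 15 alternatives), and the list's level was 7.29 to 7.42 and 7.35 to 7.52. The smooth muscle myosin gene Myh11 and the pericyte gene Pdgfrb, chosen after their values were seen, were at −0.21 and 0.28 (limma adjusted p = 0.151 and 0.207). At an unadjusted limma p under 0.05, the 3 lists had, in order, 2, 2 and 3 genes higher and 1, 1 and 3 lower. Over all rows, 10.2% passed that limit upwards and 11.7% downwards. In these 3 lists the ranges of the groups overlapped, and the part of Acta2, Rgs5 and Myl4 in the family's increases was not tested. The median log2 fold changes of the 3 lists were −0.0014 (with a sign that turned in 6 of 12 alternatives), 0.05 and −0.05.

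For mature adipocytes, Lep (0.75) and Aqp7 (0.39) were higher and Cebpa lower (−0.37) of 15 markers (limma adjusted p 0.00454 to 0.00680), with a list level of 11.53 to 11.66 in wild type and 11.55 to 11.63 in the knockout-labelled arrays. These markers of the labelled tissue were bright in both groups. Their median log2 fold change was −0.07. Calls over all rows were 3.81% higher and 3.59% lower. At an unadjusted limma p under 0.05, 2 of the 15 were higher and 4 lower, beside 10.2% and 11.7% of all rows. The 4 were Cebpa, Plin1 (−0.20), Pparg (−0.26) and Lipe (−0.15), each without overlap between the groups. Lep and Aqp7 did not overlap either, so 2 of the 15 were separated upwards and 4 downwards. Such a separation was seen upwards in 7.18% of all rows and downwards in 8.16%. Markers of testis and epididymis, which lie next to this fat pad, gave 0 calls among 13 in the limma fit, 1 higher at an unadjusted p under 0.05, Spink10 (0.24, adjusted p = 0.0563), and 0 lower. Spink10 passed with median centring, trend and robust eBayes, array weights and without wild-type array 1 (limma adjusted p 0.0336 to 0.0453). The list's level was 4.08 to 4.17 and 4.11 to 4.18, 11 of its 13 rows were among the dimmest 33.3%, and its median log2 fold change was 0.03.

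The genes with profiles most like that of Hspb7 were found by the root mean square difference over the 8 arrays, each gene centred on its wild-type mean, among 18392 genes with the brightest row of each and predicted genes left out. As Hspb7 was itself so much higher in the knockout-labelled arrays, near genes are ones with a large increase, and the values are a description. Nearest was Ehd3, a gene for a protein of endosomal membranes, at 0.49 log2. It read 6.90, 7.42, 7.15 and 7.01 in wild type and 8.56, 9.17, 8.99 and 9.16 in the knockout-labelled arrays. In both genes array 1 was lowest and array 2 highest within each group. Asb12 followed at 0.59, then the clock gene Arntl at 0.64, the imprinted gene Peg3 at 0.64, the palmitoyltransferase gene Zdhhc2 at 0.72 and the imprinted gene Zim1 at 0.72. Their increases lay between 1.62 and 2.05. Peg3 and Zim1 were highest in knockout-labelled arrays 1 and 2, unlike Hspb7, whose array 1 was lowest. No other gene of the family was among the 6.

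**Figure D4:**
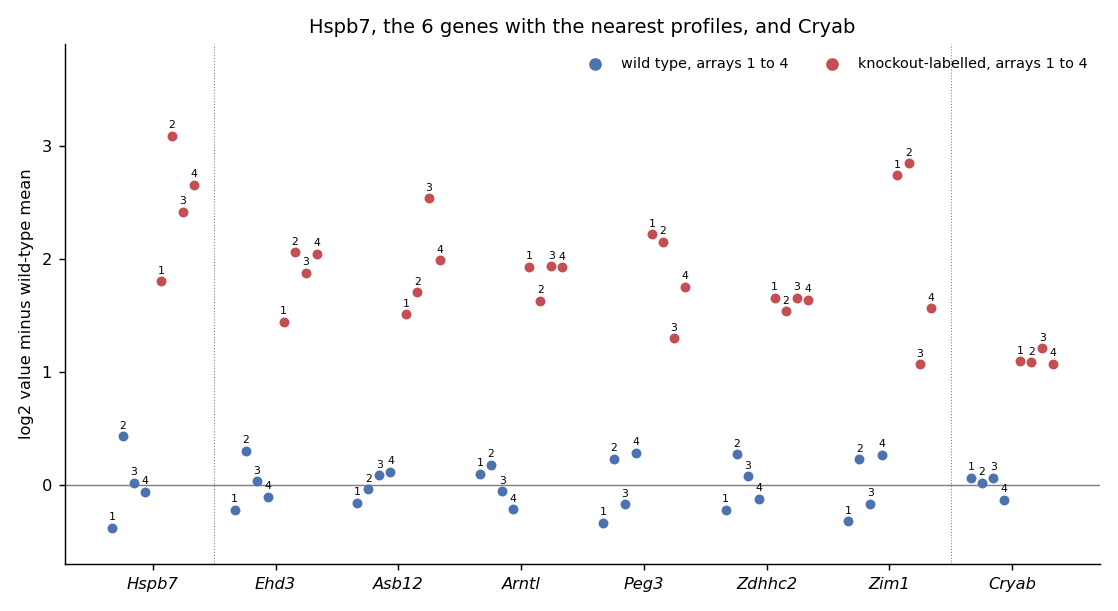
Log2 value minus the wild-type mean (vertical axis) of Hspb7, of the 6 genes nearest to it and, on the right, of Cryab, in each wild-type (blue) and knockout-labelled (red) array, numbered 1 to 4. The knockout-labelled values of Hspb7 spread over more than 1 log2 unit, while those of Cryab stay within a narrow band, from 10.82 to 10.95 on the original scale.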

How the data were processed

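RNA of 8 fat samples was hybridised to whole-transcript Affymetrix arrays, with RNA purified by TRIzol and RNeasy and labelled with biotin, per the labels' protocols. The deposited values are log2 expression, 1 per row and array; the submitters' processing notes name affy, and the steps of background correction and normalization are not given in the sources used here. The log2 scale was read from the values. If arrays were pulled to one distribution, a change shared by most genes would not show. No scanner intensities were used, so dim rows have no measured background.

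Groups came from the sample titles. Rows with exactly 1 symbol in the platform annotation (20748 of 23346) were tested in R 4.3.3 by limma 3.58.1 (lmFit, eBayes, 2 groups of 4 arrays, no filter), two-sided, with Benjamini-Hochberg adjustment over all of them; SE and intervals are those of the moderated fit. No array was identical to another. Names and neighbours follow RefSeq, GRCm38.p6; the build behind the array rows was not given. The fit was tested on simulated data. The family, the other lists and the tests were chosen with earlier results of these data known.

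Named were all genes of the family and their nearest measured neighbours, from each other list up to 3 called genes per direction (or the smallest p where none was called), and the 6 profiles nearest to Hspb7. Acta1, Plin1, Pparg and Lipe were named outside this rule, with their values known. Other exceptions are marked in the text. Alternatives were quantile normalization, centring on medians, leaving out the dimmest 33.3% of rows, all rows, trend and robust eBayes, weights for arrays, a block for the replicate number, each array left out, the mean over a gene's rows, adjusted p under 0.10 and a 1.5-fold minimum.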

Additional observations from a re-analysis of the deposited data

Results flagged for a closer look

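In 8 of 104 groups of 4 arrays (52 named genes), 1 array stood apart from the other 3 by more than Dixon's 95% limit, which chance passes in about 5% of groups. Within the family this was Cryab in knockout-labelled array 3, at 10.95 against 10.82 to 10.84. Knockout-labelled array 2 stood apart in Arntl (6.65 against 6.94 to 6.95), Zdhhc2 (7.50 against 7.60 to 7.62), Fam131c (5.50 against 5.30 to 5.31) and Actn3 (6.08 against 5.70 to 5.74). The others were wild-type array 3 in Lin37 (6.56 against 6.71 to 6.74), wild-type array 4 in Srarp (3.74 against 4.09 to 4.10) and wild-type array 1 in Dnajb2 (6.58 against 6.48 to 6.49).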

How the results depend on the processing

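The number of family genes called higher was 4 in each alternative with all 8 arrays except the 1.5-fold minimum (2), and 3 or 4 with an array left out, Hspb1 being the gene lost; 0 were called lower in any. Cryab, Hspb6 and Hspb7 passed in all 15 of their alternatives and Hspb1 in 10 of 16. Over all rows, 1536 were called, 2552 at an adjusted p under 0.10, 326 with the 1.5-fold minimum and 913 to 1418 with an array left out (913 without knockout-labelled array 4, and 972 and 1004 when wild-type array 3 or 4 was the one missing). Signs turned only for log2 fold changes near 0. Cryaa was at 0.00948 with quantile normalization, 0.0155 with median centring, 0.0145 with array weights and −0.0699 to 0.0542 with an array left out. With an array left out, Hspb8 ran from −0.0423 to 0.168, Srrm3 from −0.0280 to 0.0378, Arl15 from −0.0118 to 0.0623, Srarp from −0.00428 to 0.175, Srrm4 from −0.103 to 0.0412, Kat2a from −0.0313 to 0.0355 (−0.0110 with array weights) and Rab5c from −0.0159 to 0.0459 (−0.0133 with quantile normalization). The cause was not tested. Hspb3 has no value without the dimmest 33.3% of rows, which holds it. With the replicate number as a block, 4 family genes and 1105 rows were called. Deviations of arrays of the same number were weakly correlated (−0.0674 to 0.134 over rows), and 1 of 4 wild-type arrays correlated best with its own number. The labels give no pairing, and such weak correlations cannot decide whether the numbers pair the samples.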
